A study of Homo sapiens with 6 samples.

Results

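Secreted factors linked to the oxygen response were examined in human motor neurons grown from the embryonic stem cell line H9. They are 7 of the 57820 genes of the count table: the stanniocalcins STC1 and STC2, adrenomedullin (ADM), the vascular endothelial growth factors VEGFA, VEGFB and VEGFC, and the angiopoietin-like protein ANGPTL4. The genes were chosen by name, with the SMG and NG values of the same libraries already known, so that their own differences are given as descriptions without a p-value. All 7 were found by symbol, and all 7 were among the 17803 genes that passed the filter on low counts. The lowest of them, ANGPTL4, had between 9 and 16 counts per library.

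Under simulated microgravity (SMG), 3 libraries came from cultures on a 2D clinostat, where turning about an axis keeps changing how cells are oriented to gravity. At normal gravity (NG), 3 libraries came from cultures labelled as kept at normal gravity. Both groups carried the wild-type (WT) genotype and had been differentiated from motor neuron progenitors with retinoic acid (RA) and the Hedgehog agonist SAG, so every library stems from a single cell line. The labels name no duration, and nothing in them states that the libraries of a group came from separate cultures. The p-values below therefore weigh the group difference only against the spread among these libraries, and that spread may be technical. Total counts ranged from 20986483 to 22685870 in SMG and from 16329907 to 21386253 in NG. All 8 motor neuron markers examined were detected, with a summed level of 692 to 720 CPM in SMG and 583 to 616 CPM in NG (CPM, counts relative to the library's total after TMM scaling), and 5 of them passed as higher in SMG and 0 as lower. The 6 markers of neural progenitors summed to 3394 to 3517 CPM in SMG and 3396 to 3661 CPM in NG, most of it from NES, while PAX6, OLIG2 and VIM passed as lower in SMG and 0 as higher. Of all tested genes, 18.5% passed as lower and 17.3% as higher. Summed levels were lower in SMG, without overlap, for 6 astrocyte markers (244 to 261 CPM in SMG, 264 to 276 CPM in NG), 7 of fibroblasts and pericytes (4.80 to 5.82 CPM in SMG, 6.18 to 6.46 CPM in NG) and 5 of pluripotent cells (74.1 to 81.1 CPM in SMG, 83.5 to 89.5 CPM in NG). However, 4 of the astrocyte, 4 of the fibroblast and pericyte and 3 of the pluripotent markers averaged under 1 CPM. Nearly all of the astrocyte sum came from SLC1A2 (214 CPM in SMG, 223 CPM in NG) and SLC1A3, and of the pluripotent sum from LIN28A and DPPA4. SLC1A3 and LIN28A passed as lower, SLC1A2 and DPPA4 did not. The 6 endothelial markers summed to 1.26 to 1.53 CPM in SMG and 0.943 to 1.48 CPM in NG, with EMCN and ERG at 0 counts in every library. In bulk RNA, fewer cells of a type and less RNA per cell cannot be told apart, and the part of culture makeup in the values below was not tested.

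Cells short of oxygen stabilise the HIF transcription factors, which bind hypoxia response elements near genes of glycolysis, red cell formation and vessel growth. Several of the genes switched on in this way encode proteins that leave the cell and act on neighbours. VEGFA guides vessels into nervous tissue and supports motor neurons directly, and mice that lack the hypoxia response element of Vegfa develop a late motor neuron degeneration. Adrenomedullin is a vasodilator peptide, stanniocalcins are glycoproteins that inhibit the pappalysin proteases, and ANGPTL4 inhibits lipoprotein lipase.

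Because STC2 and ADM lay far below their NG level while VEGFB and ANGPTL4 did not, the 250 bases before the transcription start of these genes are shown. They are RefSeq sequences (GRCh38.p14), and stretches of 5 of the 7 genes were examined, without STC1 and VEGFA. Letters run 5′ to 3′ on the strand of the gene, and capitals mark the core of the hypoxia response element, ACGTG or GCGTG, on either strand. The stretches are STC2 at chr5:173328415-173328664 (minus strand), ADM at chr11:10304823-10305072 (plus strand), VEGFB at chr11:64234334-64234583 (plus strand) and ANGPTL4 at chr19:8363905-8364154 (plus strand).
STC2: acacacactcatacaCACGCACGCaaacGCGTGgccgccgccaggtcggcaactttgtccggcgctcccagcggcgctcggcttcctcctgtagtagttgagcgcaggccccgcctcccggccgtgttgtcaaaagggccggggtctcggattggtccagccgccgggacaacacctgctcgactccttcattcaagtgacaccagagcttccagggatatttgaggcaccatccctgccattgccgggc
ADM: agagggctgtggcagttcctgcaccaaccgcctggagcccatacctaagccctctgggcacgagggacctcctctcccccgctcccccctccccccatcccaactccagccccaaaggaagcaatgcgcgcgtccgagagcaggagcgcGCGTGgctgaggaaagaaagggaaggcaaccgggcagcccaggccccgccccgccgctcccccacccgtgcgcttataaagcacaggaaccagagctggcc
VEGFB: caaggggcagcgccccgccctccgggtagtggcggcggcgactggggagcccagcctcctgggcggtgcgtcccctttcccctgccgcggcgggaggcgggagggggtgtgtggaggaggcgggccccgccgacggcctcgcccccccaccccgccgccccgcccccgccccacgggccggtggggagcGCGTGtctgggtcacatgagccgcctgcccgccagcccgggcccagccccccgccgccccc
ANGPTL4: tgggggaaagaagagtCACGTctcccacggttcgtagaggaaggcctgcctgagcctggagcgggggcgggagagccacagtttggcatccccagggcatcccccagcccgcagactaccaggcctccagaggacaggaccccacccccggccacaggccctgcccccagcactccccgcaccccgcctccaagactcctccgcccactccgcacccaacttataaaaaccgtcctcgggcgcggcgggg

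STC2 held 3 matches, all GCGTG and 2 of them overlapping, starting 235, 231 and 222 bases before the start. ADM held 1 GCGTG at 101 bases, VEGFB 1 GCGTG at 61 bases, VEGFC 1 GCGTG at 59 bases, and ANGPTL4 1 ACGTG at 234 bases before the start. A match stood in 43.2% of the 35116 stretches of the same length in the table, so that its presence in all 5 genes did not separate those that were lower in SMG from those that were not. A TATAAA box on the strand of the gene, present in 6.80% of all stretches, stood in ADM and ANGPTL4 and not in STC2, VEGFB or VEGFC. A match describes these letters and shows neither binding nor a cause.

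The comparison of SMG with NG asks how transcripts of motor neurons differ under simulated microgravity. Every SMG culture was on the clinostat, while NG cultures are labelled as kept at normal gravity. An effect of gravity therefore cannot be told apart from one of turning. STC1, STC2, ADM and VEGFA were lower in SMG, and their groups did not overlap in any case. VEGFB had overlapping levels in both groups, and VEGFC lay slightly lower in SMG. ANGPTL4 had slightly higher values in SMG, at counts too low for a change to be detectable. Of the 7 factors, 4 passed edgeR's quasi-likelihood test over all genes as lower in SMG and 0 as higher, where 35.8% of all tested genes passed in either direction, 18.5% as lower and 17.3% as higher. The groups did not overlap in 6 of the 7, against 46.3% of all tested genes. Since this contrast was known when the genes were chosen, nothing is read from those shares.

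**Figure D1:**
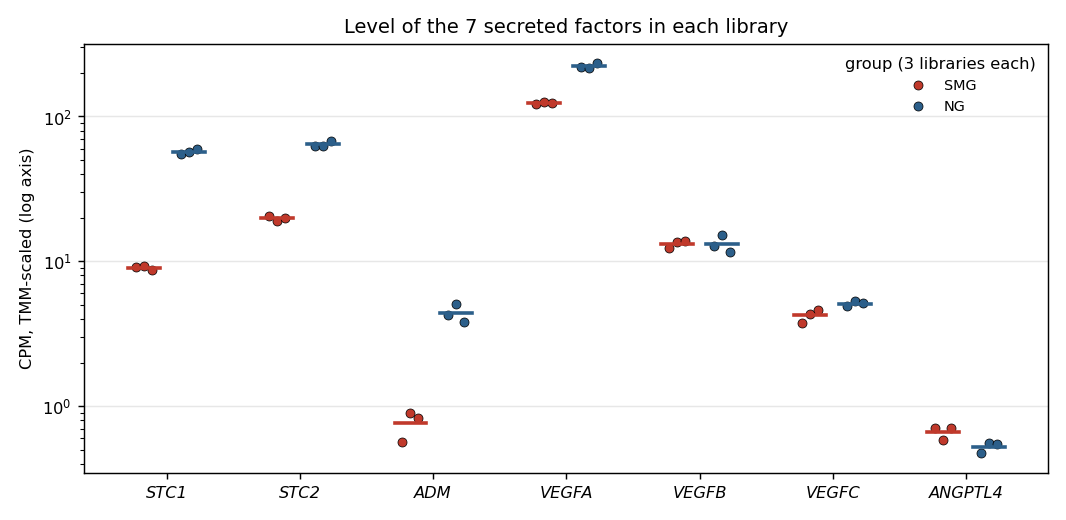
Level of the 7 factors in CPM after TMM scaling (log axis) in each library, SMG in red and NG in blue, with a bar at the mean of each group of 3. STC1 sits at 8.71 to 9.34 CPM in SMG and at 54.7 to 59.2 CPM in NG, whereas the VEGFB points of SMG lie within the range of those of NG.

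STC1, the founding mammalian stanniocalcin, had 193, 208 and 199 counts in SMG, against 1160, 919 and 972 counts in NG. After scaling it stood at 9.11, 9.34 and 8.71 CPM in SMG and at 54.7, 56.6 and 59.2 CPM in NG. The 3 SMG libraries were close together and all far below the NG libraries, a gap of 6.27-fold (log2 fold change -2.65 ± 0.06, SE; n = 3 each). Ranked by fold among the 13837 genes with a mean of at least 2 CPM, STC1 was the gene with rank 3 from the lowest. Per length it stood above 31.7% of the tested genes in SMG and above 72.8% in NG.

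STC2, its relative, had 434, 425 and 453 counts in SMG and 1331, 1015 and 1104 counts in NG. These gave 20.5, 19.1 and 19.8 CPM in SMG, against 62.8, 62.5 and 67.3 CPM in NG. The groups were again separate, with STC2 3.24-fold lower in SMG (log2 fold change -1.70 ± 0.05), at rank 11 from the lowest. The relation between the relatives turned over. Per length, STC1 stood at 0.613, 0.675 and 0.606 times STC2 in the SMG libraries, against 1.2, 1.25 and 1.21 times in the NG libraries. STC2 was thus the more abundant stanniocalcin transcript in each SMG library and STC1 in each NG library.

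ADM encodes the precursor from which adrenomedullin is cut. It had 12, 20 and 19 counts in SMG, against 91, 82 and 63 counts in NG, or 0.566, 0.898 and 0.832 CPM in SMG and 4.29, 5.05 and 3.84 CPM in NG. Every SMG library lay below every NG library, and ADM was 5.66-fold lower in SMG (log2 fold change -2.50 ± 0.20). Its SE was larger than that of STC1, at counts many times smaller, and its rank was 4 from the lowest.

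VEGFA, the principal vessel growth factor of the family and the most abundant of the 7, had 2564, 2798 and 2848 counts in SMG and 4650, 3499 and 3811 counts in NG. It stood at 121, 126 and 125 CPM in SMG, against 219, 215 and 232 CPM in NG. The SMG libraries differed by few CPM among themselves, and VEGFA was 1.80-fold lower in SMG (log2 fold change -0.84 ± 0.04). After removal of each library's dependence on length and GC content, the value was -0.98. At rank 57 from the lowest it lay well behind the stanniocalcins in fold. An antisense gene shares 188 exon bases with VEGFA, 1.30% of its annotated exons, and the sources used here do not say whether reads were counted by strand.

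VEGFB, a ligand of FLT1, had 12.4, 13.7 and 13.7 CPM in SMG and 12.8, 15.2 and 11.6 CPM in NG. The SMG values lay within the range of the NG values, and the log2 fold change was 0.01 ± 0.09. VEGFC, the lymphatic growth factor that signals through FLT4, had 3.73, 4.36 and 4.64 CPM in SMG, against 4.90, 5.30 and 5.12 CPM in NG. The groups did not overlap, but the log2 fold change of -0.26 ± 0.12 did not pass the threshold.

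ANGPTL4 had 15, 13 and 16 counts in SMG and 10, 9 and 9 counts in NG. After scaling for depth these were 0.708, 0.584 and 0.701 CPM in SMG, against 0.471, 0.554 and 0.549 CPM in NG. The ranges lay side by side with a gap smaller than the value of 1 count, and the log2 fold change of 0.35 ± 0.33 was about as large as its SE. A change of this gene was not detectable at this depth.

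The order of the factors was compared per length, as RPKM over the longest coding transcript. In SMG, VEGFA averaged 35.0 RPKM, VEGFB 9.60, STC2 3.70, STC1 2.33, VEGFC 2.06, ADM 0.405 and ANGPTL4 0.353. In NG, VEGFA averaged 62.9 RPKM, STC1 14.6, STC2 12, VEGFB 9.56, VEGFC 2.47, ADM 2.33 and ANGPTL4 0.279. In SMG, STC1 could not be separated from VEGFC, nor ADM from ANGPTL4, since their library values overlapped, and in NG this held for VEGFC and ADM. The other neighbours did not overlap. VEGFB was thus above both stanniocalcins in SMG and below both in NG.

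Of the summed RPKM of the 3 VEGF genes, VEGFA made up 75.1% ± 0.907 in SMG and 83.9% ± 2.03 in NG (SD, n = 3 each). VEGFB made up 20.5% ± 0.554 in SMG and 12.8% ± 1.92 in NG. The sum was 46.7 ± 1.44 RPKM in SMG, against 74.9 ± 1.5 RPKM in NG. These shares depend on the length given to VEGFA, which has long annotated transcripts that retain introns. With the length of all its annotated exons, 14431 in place of 3535 bases, VEGFA made up 45.4% in SMG and 59.2% in NG, and its SMG level of 8.58 RPKM was close to the 8.57 RPKM of VEGFB.

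**Figure D2:**
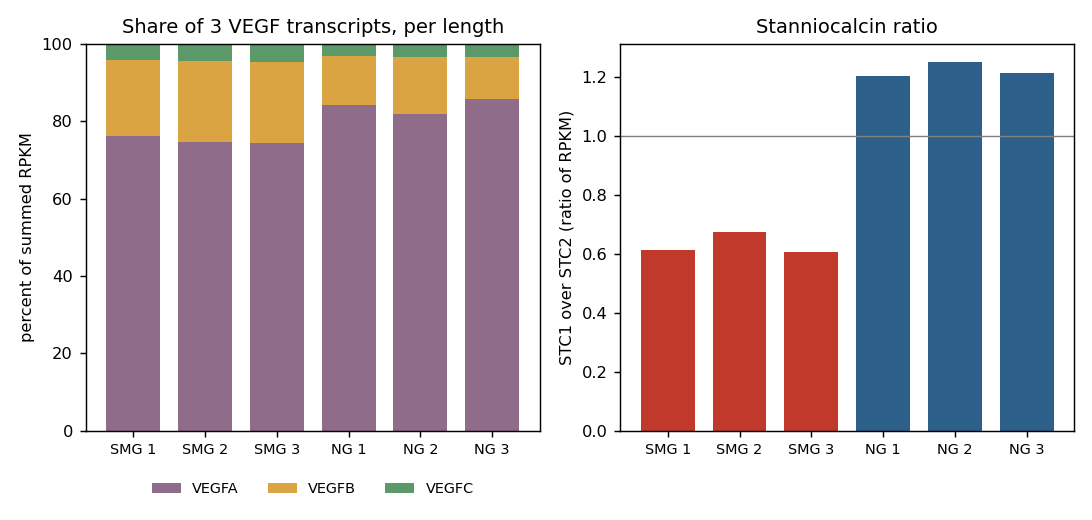
Left, percent of the summed RPKM of the 3 VEGF genes in each library, with RPKM over the longest coding transcript. Right, ratio of STC1 to STC2 in RPKM, which is below 1 in each SMG library (0.606 to 0.675, red) and above 1 in each NG library (1.2 to 1.25, blue).

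For each of 5 factors, the 3 genes with the most similar profile were taken by the smallest root mean square difference of centred log2 CPM over the 6 libraries, among 13115 other genes with a symbol and at least 2 CPM. This measure takes in the size of the group difference, so that it finds genes of like fold. For STC2 they were BNIP3, a mitophagy receptor (0.0549), P4HA1, a collagen prolyl hydroxylase (0.0707), and FAM162A (0.0801). For VEGFA they were TMEM45A (0.0280), the glucose transporter SLC2A3 (0.0430) and PFKFB3 (0.0454), which makes an activator of glycolysis. STC1 stood near FOS (0.175), a component of the AP-1 transcription factor, ADM (0.257) and the lysyl hydroxylase PLOD2 (0.259), and ADM near STC1 (0.257), PFKFB4 (0.264) and PLOD2 (0.271). The distances of STC1 and ADM were several times those of STC2 and VEGFA. VEGFC stood near FAM167A (0.0333), THEMIS2 (0.0361) and the mitochondrial ribosomal protein gene MRPL40 (0.0377), all with small differences between the groups.

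Receptors and other ligands of the VEGF family were few and moved in different directions. Of 7 listed genes 5 were tested, of which 1 rose and 2 fell, with a median log2 fold change of -0.21 against -0.0002 over all tested genes. Of all tested genes, 17.3% rose and 18.5% fell, and neither this list nor those below were tested against these shares. All these lists were drawn up with earlier results of these data known, so nothing is read from their counts or medians. NRP1, a coreceptor for VEGFA and for class 3 semaphorins, had 188, 186 and 189 CPM in SMG and 129, 124 and 127 CPM in NG. It rose (log2 fold change 0.57 ± 0.03, edgeR adjusted p = 2.45e-13). NRP2, the neuropilin that also binds VEGFC, had 159, 154 and 156 CPM in SMG, against 179, 183 and 180 CPM in NG, and fell (-0.21 ± 0.03, edgeR adjusted p = 2.03e-05). The groups of both neuropilins were fully apart.

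The signalling receptors themselves were weakly expressed. KDR, the main receptor for VEGFA, had 16, 8 and 12 counts in SMG and 19, 19 and 14 counts in NG. It passed narrowly as lower (-0.82 ± 0.32, edgeR adjusted p = 0.0419), and that call was lost with DESeq2 (adjusted p = 0.167), without a filter and on leaving out any library but SMG replicate 1 or NG replicate 3. FLT1 had between 0 and 2 counts per library and was not tested. FLT4 had 7.02 ± 0.0856 CPM in SMG and 7.41 ± 0.424 CPM in NG (-0.08 ± 0.10, edgeR adjusted p = 0.584). After removal of the dependence on length and GC content, FLT4 passed as lower, at -0.28 (edgeR adjusted p = 0.0391). PGF, another ligand of FLT1, had 4.62 ± 0.594 CPM in SMG, against 5.67 ± 0.756 CPM in NG (-0.31 ± 0.13, edgeR adjusted p = 0.0628). The difference of PGF passed on leaving out SMG replicate 3 (0.0287) or NG replicate 2 (0.0218), and with that dependence removed (0.0244). VEGFD had between 4 and 8 counts per library.

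**Figure D3:**
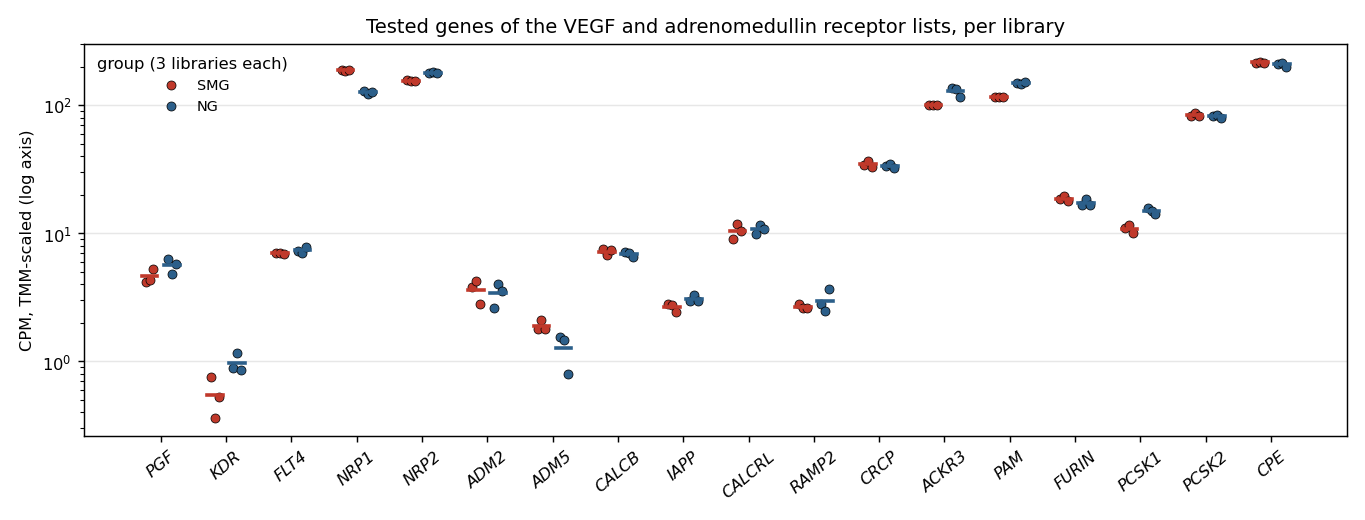
Level in CPM after TMM scaling (log axis) of all tested genes on the lists of VEGF and of adrenomedullin receptors, relatives and maturation enzymes, SMG in red and NG in blue, with a bar at the mean of 3 libraries. NRP1 is higher in SMG (186 to 189 CPM) than in NG (124 to 129 CPM), while PAM and ACKR3 lie lower in SMG.

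Adrenomedullin signals through CALCRL, which needs RAMP2 or RAMP3 at the membrane to bind it. CALCRL had 10.4 ± 1.35 CPM in SMG and 10.8 ± 0.898 CPM in NG (-0.04 ± 0.10, edgeR adjusted p = 0.797). RAMP2 had 2.69 ± 0.125 CPM in SMG, against 2.98 ± 0.612 CPM in NG (-0.15 ± 0.16, edgeR adjusted p = 0.526), but an antisense gene covers 35.9% of its exon bases and its value is uncertain. RAMP3 had 0 counts in every library, which allows levels of up to 0.132 to 0.184 CPM, and RAMP1 had between 5 and 10 counts. CALCR, the calcitonin receptor, also had 0 counts in every library, and GPR182, a scavenging receptor, had between 3 and 7. Of the list of 19 receptors, relatives and maturation enzymes, 13 were tested. Of these 0 rose and 3 fell (17.3% and 18.5% over all tested genes), with a median of 0.04. PAM, the enzyme that amidates adrenomedullin and other peptides, fell to 116 ± 0.562 CPM in SMG, against 150 ± 2.59 CPM in NG (-0.37 ± 0.03, edgeR adjusted p = 2.28e-09). PCSK1, a prohormone convertase, fell to 10.9 ± 0.763 CPM in SMG, against 15.1 ± 0.789 CPM in NG (-0.47 ± 0.08, edgeR adjusted p = 6.27e-05). ACKR3, a scavenger of CXCL12 that also binds adrenomedullin, fell to 101 ± 0.664 CPM in SMG, against 130 ± 11.2 CPM in NG (-0.37 ± 0.05, edgeR adjusted p = 2.93e-06). The related peptide genes ADM2 (0.10 ± 0.17) and ADM5 (0.55 ± 0.22) did not pass, and the exons of ADM5 overlap other genes. Of the related peptides and receptor components, CALCB (0.06 ± 0.10), IAPP (-0.21 ± 0.15) and CRCP (0.04 ± 0.06) did not pass, and CALCA had between 2 and 6 counts per library.

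Stanniocalcins bind and inhibit the pappalysins PAPPA and PAPPA2, which cut insulin-like growth factor binding proteins such as IGFBP4 and so release the growth factor. Of the 9 genes of this axis 8 were tested. Of these 5 fell and 2 rose (18.5% and 17.3% over all tested genes), with a median of -0.27. PAPPA fell to 29.9, 28.1 and 29.3 CPM in SMG, against 45.4, 44.5 and 48.0 CPM in NG (-0.66 ± 0.05, edgeR adjusted p = 1.57e-10). An antisense gene covers 21.2% of its exon bases. PAPPA2 had 1.70 ± 0.00458 CPM in SMG and 1.57 ± 0.561 CPM in NG (0.14 ± 0.22, edgeR adjusted p = 0.663). Of the binding proteins, IGFBP2 fell most, to 141 ± 3.0 CPM in SMG, against 255 ± 28.0 CPM in NG (-0.86 ± 0.08, edgeR adjusted p = 2.25e-04), and IGFBP5 fell by 0.30 ± 0.07. IGF2 fell (-0.65 ± 0.06), although its exons overlap other annotated genes and its value is uncertain, and the receptor IGF1R rose (0.24 ± 0.03).

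Few angiopoietin-like genes had enough counts to test. Of 12 listed genes of that family and of lipase biology, 11 were matched and 5 tested. Of these 2 fell and 0 rose (18.5% and 17.3% over all tested genes), with a median of -0.38. ANGPTL2 had 15.4 ± 0.606 CPM in SMG and 15.1 ± 0.912 CPM in NG (0.04 ± 0.08, edgeR adjusted p = 0.751). LIPG, the endothelial lipase, fell to 59.8 ± 2.37 CPM in SMG, against 83.4 ± 2.30 CPM in NG (-0.48 ± 0.04, edgeR adjusted p = 1.45e-09). LPL, the lipase that ANGPTL4 inhibits, had 3.30 ± 0.205 CPM in SMG and 4.35 ± 0.665 CPM in NG. It passed narrowly (-0.38 ± 0.14, edgeR adjusted p = 0.0355) and did not pass with DESeq2 (adjusted p = 0.144) or on leaving out any single library but NG replicate 1.

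A further 19 secreted factors known from other cells as hypoxia-induced were listed, with earlier results of these data known, and 12 were tested. Of these 5 fell and 2 rose (18.5% and 17.3% over all tested genes), with a median of -0.39. LOX, an enzyme that crosslinks collagen and elastin, fell to 2.64, 2.92 and 3.20 CPM in SMG, against 6.18, 7.27 and 6.64 CPM in NG (-1.19 ± 0.13, edgeR adjusted p = 2.75e-08). APLN, the peptide apelin, fell to 1.29 ± 0.410 CPM in SMG, against 2.37 ± 0.564 CPM in NG (-0.85 ± 0.23, edgeR adjusted p = 0.00399). EDN1, the vasoconstrictor endothelin, fell to 1.2 ± 0.224 CPM in SMG, against 2.01 ± 0.187 CPM in NG (-0.72 ± 0.21, edgeR adjusted p = 0.00852). LOXL2 fell (-0.41 ± 0.08), and CCN2, a matrix-associated growth factor also known as CTGF, rose (0.39 ± 0.13, edgeR adjusted p = 0.0164). With DESeq2, 3 of these factors were lower and 1 was higher, and EDN1 (adjusted p = 0.0605) and CCN2 (adjusted p = 0.101) no longer passed. On leaving out a library, EDN1 missed the threshold without SMG replicate 1 (0.0532) and CCN2 without NG replicate 3 (0.0521). IGFBP1, LEP and ESM1 had 0 counts in every library, and EPO, TGFA and CXCL8 were too low to test.

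**Figure D4:**
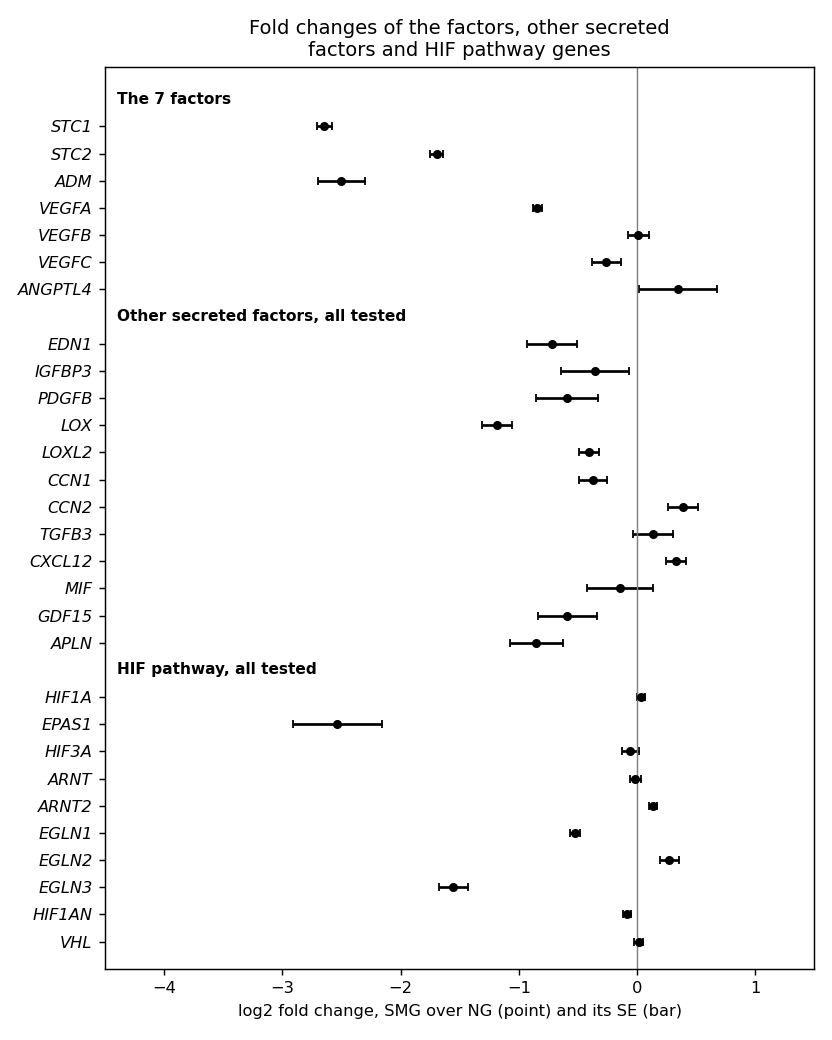
Log2 fold change of SMG over NG (point) with its SE (bar) for the 7 factors, for all tested genes of the list of other secreted factors and for all tested genes of the HIF pathway. STC1 at -2.65 and ADM at -2.50 lie lower than LOX at -1.19, and HIF1A and VHL lie at 0.03 and 0.01.

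Genes that sense oxygen and carry the response were set beside the factors. Of 10 tested, 3 fell and 2 rose (18.5% and 17.3% over all tested genes), with a median of -0.04. HIF1A, the oxygen-regulated subunit, had 200 ± 3.70 CPM in SMG and 196 ± 3.03 CPM in NG (0.03 ± 0.03, edgeR adjusted p = 0.512), although its protein, which oxygen controls, was not measured. With the trend in length and GC content removed it passed as higher, at 0.14 (adjusted p = 0.0003). The prolyl hydroxylase EGLN3, itself a known HIF target, fell to 2.81 ± 0.397 CPM in SMG, against 8.26 ± 0.503 CPM in NG (-1.56 ± 0.12, edgeR adjusted p = 1.19e-10), and its relative EGLN1 fell (-0.52 ± 0.04). EGLN2 rose (0.27 ± 0.08, edgeR adjusted p = 0.00969), but a readthrough gene shares 30.6% of its exon bases, and it missed the threshold without SMG replicate 2 (0.0667) or NG replicate 1 (0.0834). ARNT2, a dimer partner of HIF proteins, rose by a small amount (0.13 ± 0.03, edgeR adjusted p = 0.00279). EPAS1, which encodes HIF-2α, had 7, 8 and 1 counts in SMG and 31, 28 and 18 counts in NG (-2.54 ± 0.38). These are 0.244 CPM in SMG and 1.43 CPM in NG on average. The gene counts among the 3 that fell, but it was picked with its values known and is given as a description without a p-value.

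Lists of other regulators were set beside the factors in the same way, where 18.5% of all tested genes fell and 17.3% rose. Of 7 genes of ATF4 and unfolded protein signalling, which can induce STC2 and VEGFA, 2 fell and 0 rose, namely ATF4 (-0.25 ± 0.04) and XBP1 (-0.22 ± 0.05), with a median of -0.10. Of 5 tested nuclear receptors of the kinds that act on ANGPTL4, NR3C1, the glucocorticoid receptor, fell (-0.42 ± 0.08) and RXRA rose (0.33 ± 0.04). PPARD had 14.0 ± 1.21 CPM in SMG and 13.3 ± 2.15 CPM in NG. Of 5 factors that bind the VEGFA message, ZFP36L2 (-0.42 ± 0.06) and ZFP36L1 (-0.12 ± 0.04) fell and ELAVL1, a stabilising protein, rose (0.20 ± 0.03), although ZFP36L1 missed the threshold without SMG replicate 1 (0.163). Among 7 tested vasohibins, thrombospondins and members of the angiopoietin axis, the vasohibins VASH1 (0.21 ± 0.04) and VASH2 (0.22 ± 0.04) rose. Of the same list, ANGPT1 (-0.25 ± 0.05) and TIE1 (-0.36 ± 0.12) fell. TIE1 missed the threshold with DESeq2 (0.0574) and on leaving out SMG replicate 1, NG replicate 1 or NG replicate 2 (0.0749 to 0.161). After removal of the dependence on length and GC content, VASH1 was at 0.06 (adjusted p = 0.129), and XBP1 (0.201), ARNT2 (0.149) and EGLN2 (0.0552) did not pass either. This left HIF1A as the 1 gene of the HIF list that passed as higher, while HIF1AN of that list newly passed as lower (-0.13, edgeR adjusted p = 0.00213). Antisense and other genes overlap part of the exons of VASH1.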

How the data were processed

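RNA of 3 SMG and 3 NG libraries was measured by sequencing. The authors deposited a table of raw counts for Ensembl genes, 1 column a library. HISAT2, SAMtools, featureCounts, DESeq2 and hg19 are listed per the submitters' processing notes. Versions, annotation, strand setting and handling of multi-mapped reads: not given in the sources used here. Each column matched 1 sample's title. Symbols came from a table of gene names, with GENCODE 29 (built on GRCh38) added, and reached 52337 of 57820 genes. Lengths, GC content and exon overlaps also came from GENCODE 29, so RPKM values are approximate.

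Counts were filtered with filterByExpr, scaled by TMM and tested in edgeR 4.0.16 (R 4.3.3) with robust glmQLFit and glmQLFTest, with Benjamini-Hochberg adjustment over all 17803 tested genes and a threshold of 0.05. Log2 fold changes are SMG minus NG ± SE, and levels are mean ± SD with n = 3 per group. Alternatives used DESeq2 1.42.0, limma 3.58.1 (voom), other scalings and filters, the replicate number as a block, each library left out, and a spline trend in transcript length and GC content removed as offsets. The scripts were tested on simulated data. The median SE of the log2 fold change was 0.0524 for genes of 10 CPM or more. The members and lists were chosen with earlier results of these data known. From each list the genes past the threshold with a mean of at least 1 CPM were named, at most 5 by size of change, plus all receptors and ligands of the VEGF and adrenomedullin lists. Genes named beyond this rule (PAPPA2, ANGPTL2, HIF1A, EPAS1, VHL, PPARD and those at or near 0 counts) were chosen after their values were seen. PECAM1 and GPIHBP1 were not analysed here.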

Additional observations from a re-analysis of the deposited data

How the results depend on the processing

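Over 14 alternative settings, STC1, STC2, ADM and VEGFA kept their direction, with log2 fold changes from -2.68 to -2.59 for STC1, -1.75 to -1.66 for STC2, -2.63 to -2.33 for ADM and -0.98 to -0.81 for VEGFA. VEGFB ranged from -0.12 to 0.12, VEGFC from -0.33 to -0.18 and ANGPTL4 from 0.24 to 0.43. ANGPTL4 had no value under the filter of 1 CPM, and its depth of at most 16 counts limits what can be said of it. Of 1073 values of listed genes under these settings, 0 reversed a call, 32 lost one and 18 gained one. The number of called genes, 6376, ranged from 4589 (DESeq2) to 6385, and from 4961 to 6092 on leaving out a library. Per length over all annotated exons, added after the data were seen, the ratio of STC1 to STC2 was 0.676 in SMG and 1.31 in NG.

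Several counts on short lists moved by over 1.5 times, and beyond the settings' own construction (another filter, fewer libraries) the cause was not tested. VEGF receptors and ligands had 1 lower without a filter, with the filter of 1 CPM, with the replicate block and with DESeq2, and 4 lower with the length and GC trend removed (1 to 2 on leaving out a library). Lipase and angiopoietin-like genes had 1 lower without a filter, with DESeq2 and with the trend removed (1 to 2). Vasohibins and angiopoietins had 1 lower with DESeq2 and 1 higher with the trend removed (1 to 2 lower). Adrenomedullin partners had 1 higher with library size scaling and with the trend removed (0 to 1). Other secreted factors had 3 lower and 1 higher with DESeq2 (1 to 2 higher). The HIF pathway had 1 higher and ATF4 genes 1 lower and 1 higher with the trend removed (1 to 2 and, for ATF4 genes, 0 to 1 higher). Factors that bind the VEGFA message had 1 to 2 lower on leaving out a library.

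The replicate numbers shared by the groups were entered as a replicate block, which gave 6333 called genes and ended the call of KDR (adjusted p = 0.0566). Same-numbered libraries showed no shared deviation (correlations of -0.06, 0.04 and -0.06), and they did not each correlate best with their own number. With 3 libraries a group, such weak correlations cannot decide whether same-numbered libraries shared a culture or batch.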
